A study of Homo sapiens with 16 samples.

Results

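The response to indole-3-pyruvate in the presence of an aryl hydrocarbon receptor antagonist was measured in U-87MG cells, a standard culture model of human glioblastoma. The comparison sets 4 arrays of cells given indole-3-pyruvate (I3P) at 25 µM together with the antagonist SR1 at 1 µM against 4 arrays of cells given SR1 at 1 µM alone, so both groups carry the antagonist and differ in I3P. These are 8 of the 16 arrays of the series, chosen by the condition label and paired by the replicate number, and all genes with a usable name were compared. The other 8 arrays, 4 with the DMSO carrier at 0.1% and 4 with I3P at 25 µM, entered the fit and are shown beside results where they bear on them. The length of treatment is not given in the sources used here, the findings concern 1 cell line, and the labels call the arrays biological replicates without saying that they came from separate cultures, so p-values measure the spread between these samples.

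The aryl hydrocarbon receptor (AHR) is a ligand-activated transcription factor of the bHLH-PAS family. It waits in the cytoplasm bound to chaperones, moves to the nucleus when a ligand binds, pairs with ARNT and binds short DNA elements with the core GCGTG, which switches on genes such as the CYP1 cytochromes P450 and its own repressor AHRR. I3P is the keto acid that amino acid oxidases and transaminases form from tryptophan, and glioblastoma cells are known for tryptophan-derived AHR ligands that favour motility. The comparison asks what I3P changes in cells that were also given SR1. Whether SR1 kept the receptor blocked once I3P was added was not measured.

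The replicate numbers 1 and 2 carry the title series SLI and the numbers 3 and 4 the series SMI, and each series holds every group. Values are log2 expression after robust multi-array averaging, with array medians between 8.32 and 8.38 over the 14040 named genes. Correlations over genes among the 8 arrays compared lay between 0.928 and 0.972. The I3P array of replicate 1, which is in neither group but shares the estimate of spread, correlated with the others at 0.877 to 0.910. VIM and TNC, the mesenchymal filament protein and matrix glycoprotein that mark this line, stood at percentiles 99.9 and 99.8 of all genes in SR1, CD44 at 85.9 and the neural progenitor filament gene NES at 22.9. No gene marks the presence of I3P or SR1 by itself, so labels were taken as given, and an exchange of the 2 labels in every replicate would turn each sign below.

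With I3P added to SR1, AHR target genes, a transporter, interleukin genes and a small set of signalling and transcription factor genes were higher, and few genes were lower. A gene passed at a Benjamini-Hochberg adjusted p under 0.05 over all genes, by limma with the replicate number as a block. In all 45 of 14040 genes passed (0.321% of all genes), 40 higher (0.285%) and 5 lower (0.0356%). The largest rises were SLC16A6, CYP1B1, IL1B, PLEKHG4B and STC2, and the falls were DKK1, BDKRB1, RGS4, SCUBE3 and TRPC4. In a culture measured in bulk, a change in the share of cells and a change in RNA per cell cannot be told apart. At an unadjusted p under 0.05, 1061 genes differed (7.56%), 494 higher (3.52%) and 567 lower (4.04%).

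The rises ran from 0.43 to 2.80 on the log2 scale with a median of 0.87, and 13 exceeded 1. For 34 of the 40 the groups did not overlap, with I3P+SR1 above, a pattern met in 1.53% of all genes (2.91% in either direction). The difference within a replicate number was positive in all 4 replicates for each of the 40, against 8.75% of all genes (19.6% with 4 differences of either sign). The 40 passed by this same difference on these arrays, so both patterns are largely set by that choice and add no separate support. Without the replicate block 16 genes passed, all of them rises among these 40 (0.114% of all genes), and none of the falls. The count was 22 without SR1 replicate 1, 22 without SR1 replicate 2, 23 without SR1 replicate 3, 26 without SR1 replicate 4, 28 without I3P+SR1 replicate 2, 22 without I3P+SR1 replicate 3 and 18 without I3P+SR1 replicate 4. It was 104 without I3P replicate 1, the array that stood apart, and these included all 45. Of the rises, 18 passed whichever of the 16 arrays was left out, and the other 22 rises and all 5 falls were lost at least without I3P+SR1 replicate 4.

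**Figure D1:**
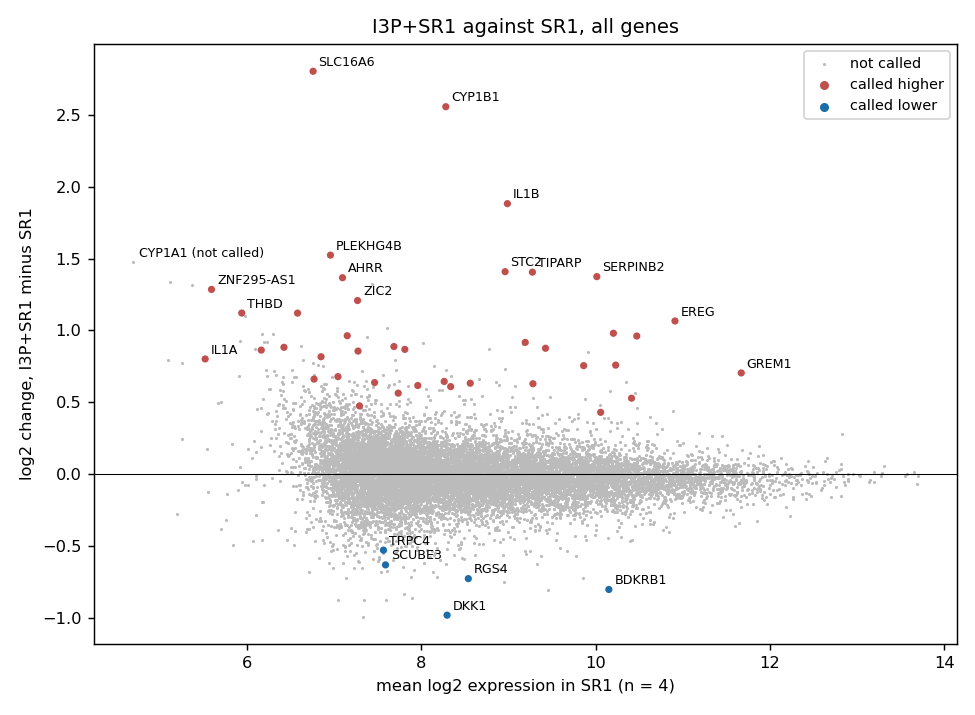
Log2 change from SR1 to I3P+SR1 (vertical axis) against the mean log2 expression in SR1 (horizontal axis) for 14040 genes, with the 40 genes called higher in red and the 5 called lower in blue. SLC16A6 at 2.80 and CYP1B1 at 2.56 stand above the rest, and CYP1A1, at the dim end, changed by 1.47 without being called.

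Established AHR target genes were among the largest rises. CYP1B1, a cytochrome P450 that oxidises polycyclic hydrocarbons and oestrogens, read 8.36, 8.40, 8.17 and 8.20 in SR1 replicates 1 to 4 and 10.56, 10.53, 11.15 and 11.11 in I3P+SR1. Each I3P+SR1 array lay over 2 log2 units above its SR1 partner, and the groups were far apart. The rise was 2.56 (SE 0.13), or 5.89-fold, with adjusted p = 1.05e-06. AHRR, the AHR repressor that the receptor itself induces, read 7.25, 7.11, 6.72 and 7.31 in SR1 and 8.44, 8.08, 8.53 and 8.81 in I3P+SR1. Its groups did not overlap either, and it rose by 1.37 (SE 0.15, adjusted p = 0.00183).

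TIPARP, an ADP-ribosyltransferase that restrains AHR in a negative feedback, read 9.02, 9.33, 9.12 and 9.63 in SR1 and 10.15, 10.25, 10.94 and 11.38 in I3P+SR1. All I3P+SR1 arrays were higher than all SR1 arrays, with the SMI replicates 3 and 4 highest, and the rise was 1.41 (SE 0.18, adjusted p = 0.00339). SERPINB2, an inhibitor of urokinase-type plasminogen activator, differed more between replicate numbers than between treatments. It read 10.08, 9.12, 9.34 and 11.52 in SR1 and 11.35, 10.51, 11.06 and 12.63 in I3P+SR1, so the groups overlapped while every pair moved up by 1.11 to 1.72. Its rise of 1.37 (SE 0.21) had adjusted p = 0.0152 with the block and 1.0 without it, and 5 single arrays each ended the call when left out, namely SR1 replicates 1, 2 and 3 and I3P+SR1 replicates 3 and 4 (adjusted p 0.0689 to 0.0904).

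The AHR target battery had 11 measured members, of which 4 rose, beside 0.285% of all genes, and none fell. Changes were positive in 10 of 11 with a median of 0.54, against 47.1% positive and a median of -0.01 over all genes. The battery, like the other lists, was chosen with earlier results of these data known. CYP1A1, the classical dioxin-inducible P450, was among the dimmest of all genes, with a mean in SR1 at percentile 0.00712. It read 4.44, 5.01, 3.97 and 5.38 in SR1 and 5.83, 5.69, 5.17 and 7.99 in I3P+SR1, higher in each pair though the groups overlapped. Its change of 1.47 (SE 0.36) had adjusted p = 0.145, and 0.0289 without I3P replicate 1. CYP1A2 had a change of 0.54 (SE 0.20, adjusted p = 0.527), NQO1, the quinone reductase, 0.36 (SE 0.11, adjusted p = 0.337) and NFE2L2, which encodes NRF2, 0.35 (SE 0.13, adjusted p = 0.528). The efflux pump gene ABCG2, the amino acid transporter gene SLC7A5 and the aldehyde dehydrogenase gene ALDH3A1 stood at 0.23, 0.05 and -0.34.

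The receptor gene AHR read 11.40, 11.40, 11.53 and 11.53 in SR1 and 11.16, 11.02, 11.21 and 11.26 in I3P+SR1. The I3P+SR1 arrays all lay below the SR1 arrays, but the change of -0.30 (SE 0.09) did not pass (adjusted p = 0.273). No member of the list of 18 measured AHR partners and co-regulators passed. The dimerisation partner ARNT was at -0.05, ARNT2 at -0.11 and the co-repressor NCOR1 at -0.12.

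**Figure D2:**
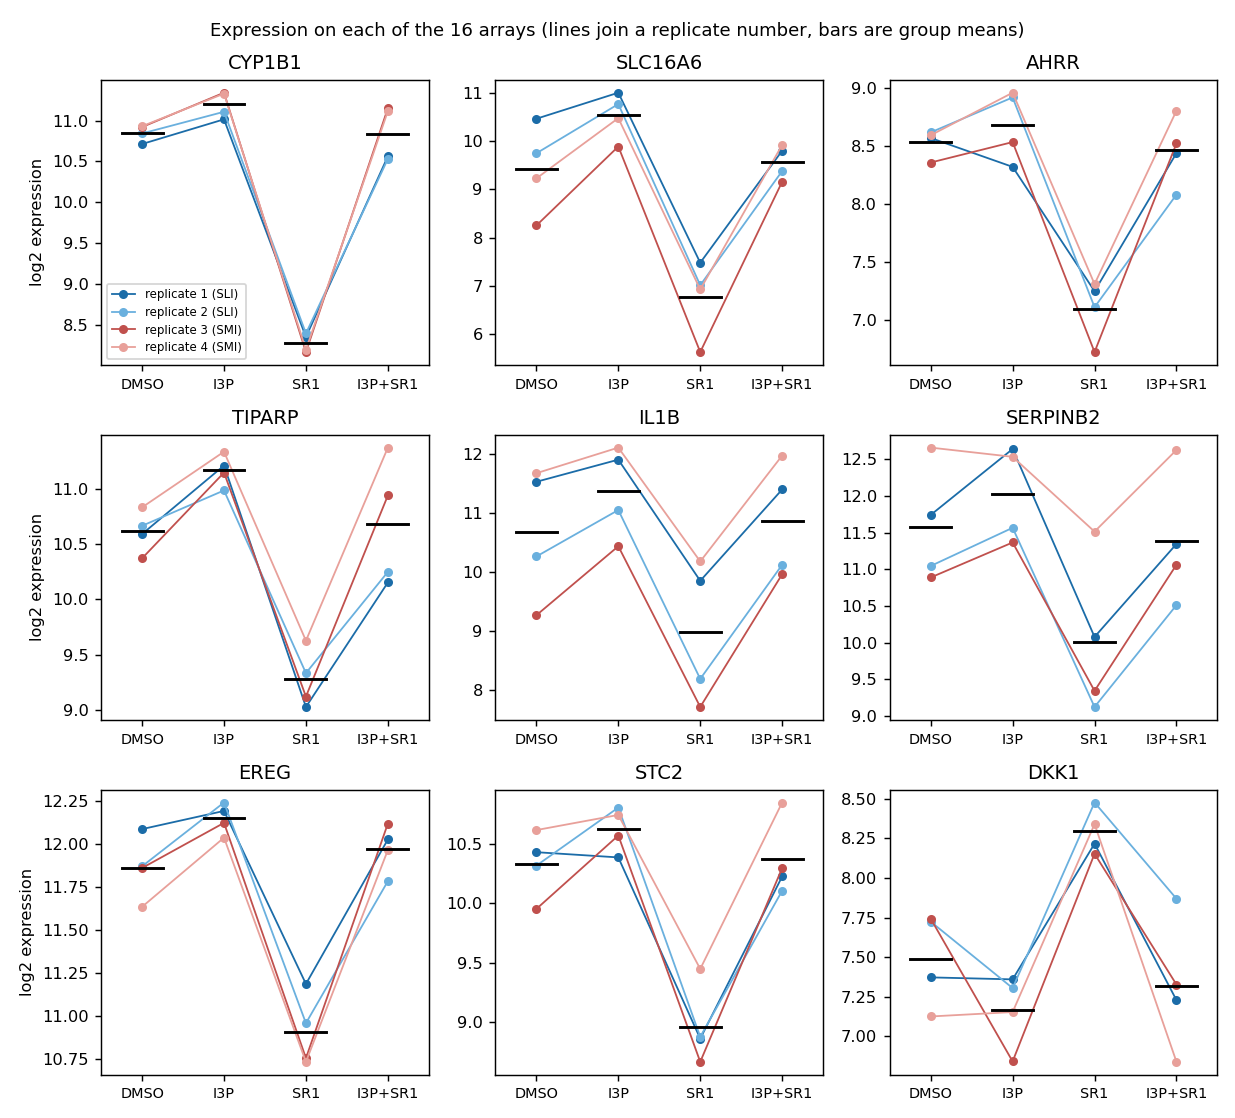
Log2 expression of 9 genes on all 16 arrays, by group, with lines joining the arrays of a replicate number and black bars at group means. In CYP1B1, AHRR and TIPARP the 4 SR1 arrays are the lowest of the 16, in IL1B and SERPINB2 the replicates run in parallel at different levels, and DKK1 runs the other way.

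Upstream sequences of 4 genes that rose are shown because they carry the AHR core letters in the stretch just before the transcription start. Each run gives the 250 bases before the start, 5′ to 3′ on the gene's strand, from RefSeq on GRCh38.p14, with every GCGTG or its reverse complement CACGC in capitals, overlapping matches included. AHRR lies at chr5:321464-321713 on the plus strand, TIPARP at chr3:156674340-156674589 on the plus strand, STC2 at chr5:173328415-173328664 on the minus strand and INSIG1 at chr7:155297628-155297877 on the plus strand.
AHRR: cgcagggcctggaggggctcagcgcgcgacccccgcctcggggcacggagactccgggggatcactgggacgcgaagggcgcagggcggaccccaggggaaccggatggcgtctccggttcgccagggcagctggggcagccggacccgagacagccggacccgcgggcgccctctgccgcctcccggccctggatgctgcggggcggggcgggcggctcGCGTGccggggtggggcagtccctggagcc
TIPARP: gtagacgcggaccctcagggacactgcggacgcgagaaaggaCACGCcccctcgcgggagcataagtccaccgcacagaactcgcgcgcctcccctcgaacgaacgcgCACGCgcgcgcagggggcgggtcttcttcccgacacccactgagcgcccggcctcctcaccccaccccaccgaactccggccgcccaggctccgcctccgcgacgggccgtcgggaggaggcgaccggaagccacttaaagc
STC2: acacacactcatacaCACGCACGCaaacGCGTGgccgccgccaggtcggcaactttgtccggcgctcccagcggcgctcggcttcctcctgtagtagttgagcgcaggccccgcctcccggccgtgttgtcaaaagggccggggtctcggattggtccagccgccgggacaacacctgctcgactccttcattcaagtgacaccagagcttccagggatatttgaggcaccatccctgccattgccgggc
INSIG1: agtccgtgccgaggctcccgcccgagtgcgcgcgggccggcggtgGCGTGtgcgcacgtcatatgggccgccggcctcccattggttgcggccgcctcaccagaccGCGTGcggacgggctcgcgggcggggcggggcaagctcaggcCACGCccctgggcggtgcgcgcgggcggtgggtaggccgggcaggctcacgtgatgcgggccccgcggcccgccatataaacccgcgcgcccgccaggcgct

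The match nearest the start began 30 bases before it in AHRR, 142 in TIPARP, 222 in STC2 and 102 in INSIG1. Over windows from 250 bases before to 50 after a start, 32 of the 40 genes that rose had an entry, and 20 of these 32 (62.5%) held GCGTG on either strand in at least 1 window, against 56.4% of the 11192 measured genes with an entry. The longer form TNGCGTG was held by 5 of 32 (15.6%) against 9.10%. Counted by window, GCGTG was in 47.8% of the 46 windows of the genes that rose and 46.4% of the 16459 of measured genes. For TNGCGTG these window shares were 10.9% and 6.63%. Over all 35116 windows of the table the window shares were 36.5% and 5.51%, which do not compare with the shares of genes. Of the 4 genes that fell and had an entry, 3 held GCGTG and 0 held TNGCGTG. SLC16A6 and CYP1B1, the largest rises, had no entry and are absent from these shares. IL1B, PLEKHG4B and SERPINB2 are among the rises that had an entry without GCGTG. The shares were not tested, and a match describes the letters only.

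Among metabolic and transport genes, SLC16A6, which encodes a member of the monocarboxylate transporter family, rose most of all genes. It read 7.48, 7.01, 5.63 and 6.93 in SR1, where its mean lay at percentile 2.17 of all genes, and 9.80, 9.38, 9.16 and 9.92 in I3P+SR1, at percentile 78.6. Every I3P+SR1 array lay above every SR1 array, and the rise was 2.80 (SE 0.22), or 6.98-fold, with adjusted p = 0.000102. It was the member of its list of 15 measured monocarboxylate and amino acid transporters that passed, and the other 14 lay between -0.30 and 0.38. The lactate transporter genes SLC16A1 and SLC16A3 were at -0.07 and 0.14.

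Of 22 measured glycerolipid enzymes and lipid transfer genes 2 rose, PITPNC1 and AGPAT9, beside 0.285% of all genes, with a list median of 0.02. Of these, 1 passed without the block, and the list's count was 0 without replicate 2, 3 or 4. Its members were chosen with earlier results of these data known. INSIG1, an endoplasmic reticulum protein that holds back sterol synthesis, read 10.36, 10.29, 9.85 and 10.31 in SR1 and 11.18, 10.88, 11.01 and 11.66 in I3P+SR1, a rise of 0.98 (SE 0.12, adjusted p = 0.00329, and 0.0915 without the block). None of the other 19 members of the cholesterol list passed, and the list median was -0.00252. PITPNC1, a phosphatidylinositol transfer protein, rose by 0.92 (SE 0.12, adjusted p = 0.00339) between groups that did not overlap. AGPAT9, a glycerol-3-phosphate acyltransferase now named GPAT3, rose by 0.75 (adjusted p = 0.0137, and 0.0842 without the block), a call that ended when I3P+SR1 replicate 2, 3 or 4 or SR1 replicate 3 was left out (adjusted p 0.0566 to 0.0798). PLA2G4A, the phospholipase that frees arachidonic acid, rose by 0.68 (adjusted p = 0.0254), and its call ended with 7 arrays left out singly (adjusted p 0.0594 to 0.151).

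ALDH1A3, a retinaldehyde dehydrogenase that makes retinoic acid, read 10.70, 10.60, 10.28 and 10.31 in SR1 and 11.39, 11.64, 11.17 and 11.53 in I3P+SR1. The groups were separate and the rise was 0.96 (SE 0.12, adjusted p = 0.00329, and 0.0722 without the block). Of the 16 measured retinoid genes it was the member that passed, while the dehydrogenase gene DHRS3 was at 0.43 (adjusted p = 0.0516) and the retinoic acid binding protein gene CRABP2 at -0.57 (adjusted p = 0.0948). CPOX of haem synthesis was the passing member of 12 haem genes, at 0.61 (adjusted p = 0.0387, and 0.0877 without the block), and was lost with 11 arrays left out singly (adjusted p 0.0574 to 0.185).

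IL1B, the gene of the inflammatory cytokine interleukin 1 beta, read 9.86, 8.19, 7.72 and 10.18 in SR1 and 11.41, 10.13, 9.97 and 11.98 in I3P+SR1. Replicates 1 and 4 were the higher ones in both groups, so the groups overlapped, while the 4 pairs rose by 1.55, 1.93, 2.25 and 1.80. The rise of 1.88 (SE 0.16) had adjusted p = 0.000244 with the replicate block and 1.0 without it. IL1A, its neighbour on chromosome 2 with no measured gene between them, was dim, with an SR1 mean at percentile 0.0570, and rose by 0.80 (adjusted p = 0.0394, 1.0 without the block), a call lost with 12 arrays left out singly (adjusted p 0.0579 to 0.184).

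EREG, the gene of the EGF receptor ligand epiregulin, was bright in every array. It read 11.19, 10.96, 10.76 and 10.74 in SR1 and 12.03, 11.79, 12.12 and 11.97 in I3P+SR1, with no overlap, and rose by 1.07 (SE 0.10, adjusted p = 0.000441). It was the member that passed of 13 measured EGF receptor ligands and receptors, with the ligand genes TGFA at 0.33 and HBEGF at -0.46 and the receptor gene EGFR at -0.06. STC2, the gene of the secreted glycoprotein stanniocalcin 2, read 8.86, 8.88, 8.66 and 9.45 in SR1 and 10.23, 10.11, 10.30 and 10.85 in I3P+SR1, and rose by 1.41 (SE 0.13, adjusted p = 0.000398). GREM1, a secreted antagonist of bone morphogenetic proteins, was among the brightest genes, at percentile 98.5 in SR1, and rose by 0.70 (SE 0.10, adjusted p = 0.00706, and 0.0842 without the block). Leaving out I3P+SR1 replicate 4 ended its call (adjusted p = 0.0533).

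Among genes linked to NF-kB and stress signalling, 4 of 29 measured members of the cytokine and NF-kB list rose, beside 0.285% of all genes, and 0 fell, with a list median of 0.09. This list was chosen with earlier results of these data known, so its count adds no separate support. The count was 2 without the block, 1 without replicate 2 or without replicate 3, and 6 without I3P replicate 1. The 4 rises were IL1B, IL1A, the kinase gene RIPK4 at 1.12 (SE 0.15, adjusted p = 0.00615) and the scaffold gene CARD10 at 0.86 (SE 0.12, adjusted p = 0.00615). RIPK4 read 6.45, 6.78, 6.35 and 6.75 in SR1 and 7.78, 7.80, 7.61 and 7.63 in I3P+SR1, the latter a narrow band above every SR1 array. IER3, a stress-inducible early response gene, rose by 0.76 (SE 0.11, adjusted p = 0.00654, and 0.101 without the block) and was the passing member of 29 immediate early genes. THBD, the gene of the thrombin receptor thrombomodulin, read 6.19, 6.27, 5.57 and 5.74 in SR1, at percentile 0.164 of all genes, and 6.94, 7.10, 6.82 and 7.39 in I3P+SR1. Its groups did not overlap, and its rise of 1.12 (SE 0.18, adjusted p = 0.0189, and 0.294 without the block) was lost when any 1 of the 4 SR1 arrays or I3P+SR1 replicate 3 or 4 was left out (adjusted p 0.0664 to 0.107). BCL3, an atypical IkB protein, was at 0.62 with adjusted p = 0.048, and 1.0 without the block, and was lost with 14 arrays left out singly (adjusted p 0.0501 to 0.194).

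Transcription factors that rose included ZIC2, a zinc finger factor of forebrain development. It read 7.03, 7.69, 7.43 and 6.93 in SR1 and 8.70, 8.33, 8.30 and 8.59 in I3P+SR1, with no overlap, and rose by 1.21 (SE 0.15, adjusted p = 0.00339). The homeobox gene DLX2 read 7.61, 7.60, 7.70 and 7.84 in SR1 and 8.53, 8.33, 8.68 and 8.76 in I3P+SR1. Its rise of 0.89 (SE 0.13, adjusted p = 0.00804) was lost without SR1 replicate 3 (adjusted p = 0.0532) or I3P+SR1 replicate 4 (adjusted p = 0.0587). These were the passing 2 of 18 measured neurodevelopmental factors, whose median was 0.07, where 0.285% of all genes rose. That list too was chosen with earlier results of these data known. NPAS2, a bHLH-PAS protein of the clock and a relative of AHR, read 9.55, 9.72, 9.37 and 9.05 in SR1 and 10.38, 10.39, 10.41 and 10.02 in I3P+SR1, and rose by 0.88 (SE 0.11, adjusted p = 0.00329, and 0.378 without the block). It was the passing member of 18 circadian genes, with ARNTL at 0.33 and CLOCK at -0.10.

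Of the remaining rises, PLEKHG4B was the largest. It read 6.80, 6.77, 6.86 and 7.41 in SR1 and 8.11, 8.34, 8.73 and 8.75 in I3P+SR1, and rose by 1.52 (SE 0.16, adjusted p = 0.000816). The long noncoding RNA gene ZNF295-AS1 was dim, at percentile 0.0783 in SR1, read 5.11, 5.45, 5.85 and 5.97 there and 6.70, 6.58, 7.09 and 7.15 in I3P+SR1, and rose by 1.29 (SE 0.16, adjusted p = 0.00339). In both genes every I3P+SR1 array lay above every SR1 array. CLDND1, which encodes a claudin-related membrane protein, rose by 0.53 (SE 0.07, adjusted p = 0.0055, and 0.0549 without the block). It adjoins CPOX among the measured genes of chromosome 3.

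The other 13 rises that passed were lost with single arrays left out, and 11 of them did not pass without the block (adjusted p 0.0665 to 1.0). The metalloprotease gene ADAMTS18 was at 0.88 and the CDC42 effector gene CDC42EP2 at 0.87, followed by TMEM119 at 0.82 and GLIS1, a zinc finger factor, at 0.66. JARID2, a subunit of Polycomb complex PRC2, was at 0.64, the ligand gene WNT9A at 0.64, FLVCR2 at 0.63 and TPRA1 at 0.63. KDR, the gene of VEGF receptor 2, was at 0.56, STAP2 at 0.47 and WIPI1, which acts in autophagosome formation, at 0.43. The uncharacterised loci LOC284798 and LOC441081 were at 0.96 and 0.86. ADAMTS18 and CDC42EP2 passed without the block. All 13 belong to the 22 rises lost with between 1 and 14 arrays left out singly, where adjusted p lay between 0.0501 and 0.194. KDR is also on the list of endothelial markers, of which the other 7 measured members did not pass.

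The 5 falls were smaller than the leading rises and none passed without the block. DKK1, a secreted WNT antagonist, read 8.22, 8.48, 8.15 and 8.34 in SR1 and 7.23, 7.87, 7.33 and 6.84 in I3P+SR1, without overlap, and fell by 0.98 on the log2 scale (SE 0.16, adjusted p = 0.0227). BDKRB1, the bradykinin B1 receptor gene, read 10.002, 10.24, 10.01 and 10.35 in SR1 and 9.61, 9.47, 9.13 and 9.18 in I3P+SR1, and fell by 0.80 (SE 0.15, adjusted p = 0.0387). These are the 2 falls whose groups did not overlap, a pattern with I3P+SR1 below met in 1.38% of all genes. The falls too were chosen by this difference, which favours that pattern. RGS4, a brake on G protein signalling, fell by 0.73 (SE 0.13, adjusted p = 0.038), the secreted protein gene SCUBE3 by 0.63 (SE 0.11, adjusted p = 0.0387) and the cation channel gene TRPC4 by 0.53 (SE 0.08, adjusted p = 0.0161). All 4 pairs moved down in each, with TRPC4 highest in replicate 4 of both groups.

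Without the block the adjusted p was 0.0807 for DKK1, 0.0665 for BDKRB1 and 1.0 for the other 3 falls. Each fall was lost with between 5 and 15 arrays left out singly, with adjusted p between 0.0501 and 0.183. Of 13 measured bradykinin receptor and RGS genes, BDKRB1 and RGS4 fell, beside 0.0356% of all genes, though 0 passed without the block. The B2 receptor gene BDKRB2 was at -0.23. Of 20 measured WNT genes DKK1 fell, beside the same 0.0356%, and RSPO3, which encodes a WNT enhancer, was at -0.53 (adjusted p = 0.0971). Both lists were chosen with earlier results of these data known, so these counts add no separate support.

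**Figure D3:**
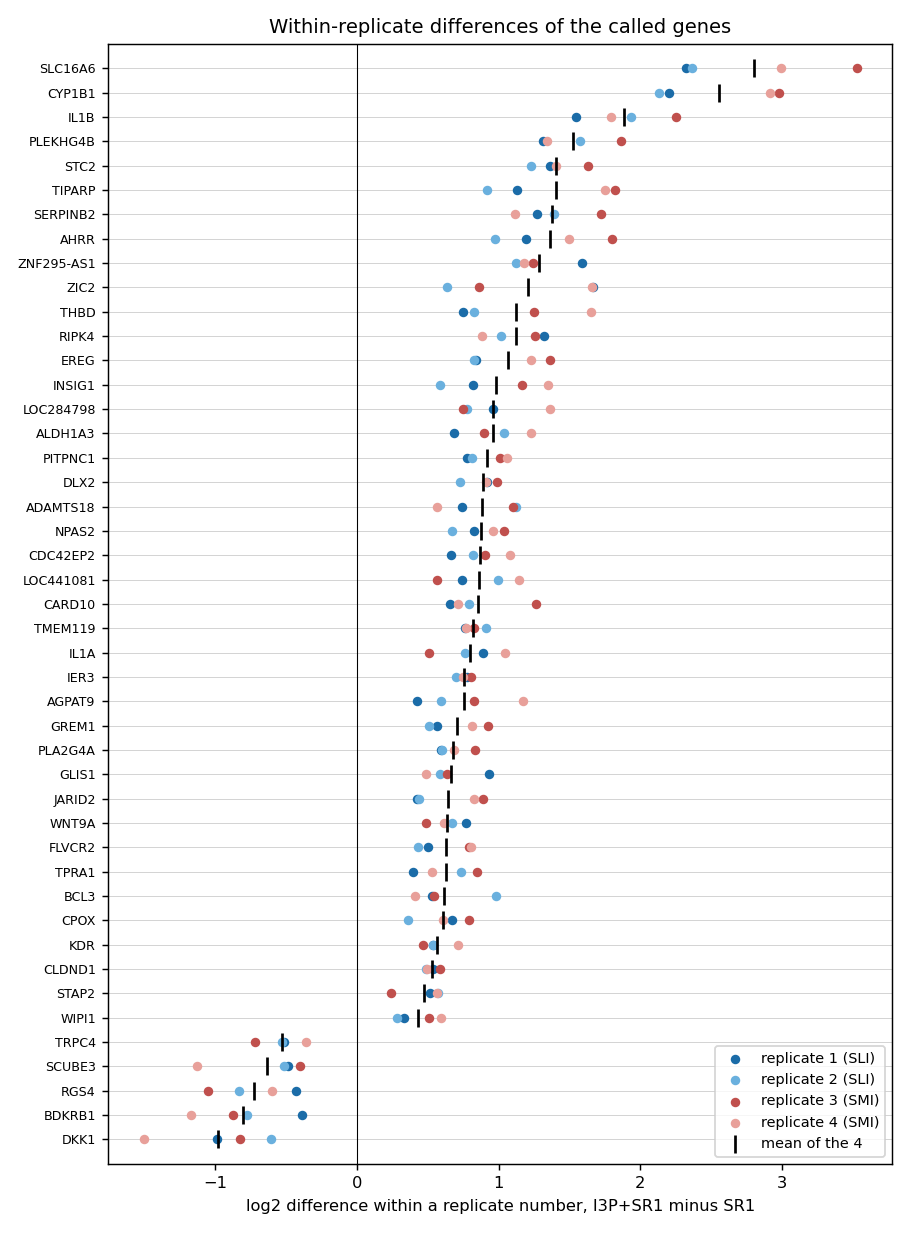
Log2 difference between I3P+SR1 and SR1 within each replicate number (points, coloured by replicate and title series) for the 45 genes called, with the mean of the 4 as a black bar. All points of the 40 rises lie to the right of 0 and all points of the 5 falls to the left.

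The size of the response varied between replicates. The median difference over the 40 rises was 0.77 in replicate 1, 0.78 in replicate 2, 0.90 in replicate 3 and 1.00 in replicate 4, while the median over all genes lay between -0.02 and 0.01 in each. Within SLI the median rise was 0.79 and within SMI 0.99, and 30 of the 40 were larger within SMI. In the SLI replicates CYP1B1 changed by 2.17, SLC16A6 by 2.35 and TIPARP by 1.02, and in the SMI replicates by 2.95, 3.26 and 1.79. ZNF295-AS1 went the other way, with 1.36 and 1.21, as did RIPK4, with 1.17 and 1.07. With 4 arrays a group cut to 2, the count of genes was 2 within SLI and 8 within SMI, and the difference between the series was not tested.

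The correlation over genes between the differences of any pair of replicates lay between 0.04 and 0.29, highest for replicates 3 and 4. The standard deviation of the differences was 0.30 to 0.33 log2 units in each replicate, with 74, 86, 110 and 103 genes above a difference of 1 and 62, 49, 63 and 54 genes below -1 in replicates 1 to 4. The rises leaned to the dim end in SR1, where the median of their percentiles was 36.0. Of the 40, 17 had an SR1 mean below percentile 25, where 25% of all genes lie by definition, and 6 an I3P+SR1 mean below it. The rises were chosen for an SR1 mean below that of I3P+SR1, which favours low levels in SR1.

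The same addition of I3P was measured without the antagonist on 8 other arrays, 4 of I3P and 4 of DMSO, which share no array with the comparison above. In I3P against DMSO 0 genes passed (0%) by limma with the block, and 882 had an unadjusted p under 0.05. All 40 genes that rose in the presence of SR1 had positive changes in I3P against DMSO too, with a median of 0.24 and a range of 0.03 to 1.11, against 45.6% of all genes. All 40 were also positive without replicate 1, where the median was 0.27, and in 20 of 40 all 4 pairs were positive, against 6.1% of all genes. An unadjusted p under 0.05 went with 16 of the 40, against 3.14% of all genes. The spread of each gene was estimated from all 16 arrays, so these 8 arrays also bore on which genes passed. That can favour even pairs and small p-values here. Over all 14040 genes the changes with and without SR1 correlated at 0.24. The correlation was 0.11 with replicate 1 left out of I3P against DMSO. All 5 falls were negative there, with a median of -0.33. SLC16A6 changed by 1.11 (SE 0.22, unadjusted p = 0.000245, adjusted p = 0.574), ZNF295-AS1 by 0.86 and THBD by 0.78, while AHRR was at 0.15 and GREM1 at 0.06.

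The change from SR1 to I3P+SR1 was larger than that from DMSO to I3P for most of these genes. The test of that difference passed for CYP1B1 alone (0.00712% of all genes). These changes start from different levels, since the SR1 mean lay below the DMSO mean in all 40 rises. A larger change here is therefore not a higher level than with I3P alone. CYP1B1 rose from 8.28 ± 0.11 (SD, n = 4) in SR1 to 10.84 ± 0.34 in I3P+SR1, and stood at 10.85 ± 0.10 in DMSO and 11.20 ± 0.16 in I3P. The change with SR1 exceeded that without it by 2.21 (95% interval 1.81 to 2.61, adjusted p = 0.000383). For the 40 rises this difference was positive in 39 with a median of 0.62, and its unadjusted p was under 0.05 in 34, against 3.96% of all genes. The rises were chosen for a large change with SR1, so a positive difference is partly set by that choice. BCL3 was the exception, with a difference of -0.06 (95% interval -0.41 to 0.29), and for THBD and ZNF295-AS1 the intervals, -0.21 to 0.89 and -0.07 to 0.93, reached to both sides of 0.

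**Figure D4:**
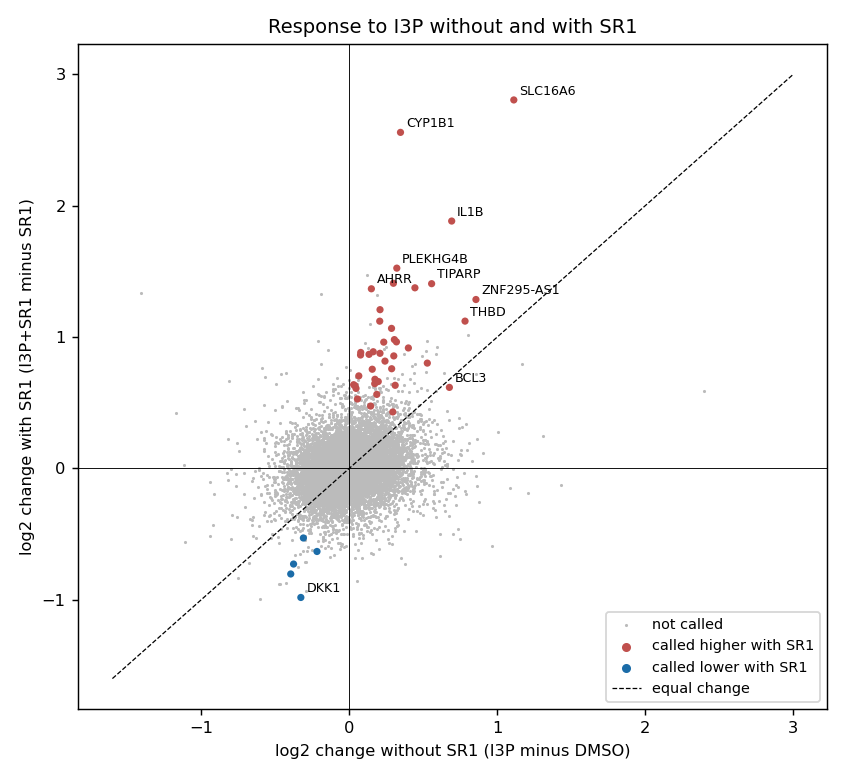
Log2 change with I3P in the presence of SR1 (vertical axis) against the change without SR1 (horizontal axis) for all genes, with the dashed line at equal change and the genes called with SR1 in colour. All 40 red points lie to the right of 0, and CYP1B1 and SLC16A6 lie farthest above the line.

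Set beside the carrier control, which shares the I3P+SR1 arrays with the comparison, the I3P+SR1 mean lay within 0.25 log2 units of the DMSO mean in 38 of the 40 rises and in all 5 falls. This was so for 92.5% of all genes, so the count is near the background. The I3P+SR1 mean minus the DMSO mean had a median of 0.02 and a range of -0.20 to 0.35 among the rises. IL1B, for example, was at 10.69 ± 1.14 (SD, n = 4) in DMSO and 10.87 ± 0.98 in I3P+SR1, and PLEKHG4B at 8.43 ± 0.02 and 8.48 ± 0.31. The SR1 mean was the lowest of the 4 group means in all 40 rises and in 26.1% of all genes, but the rises were chosen for an SR1 mean below that of I3P+SR1, which favours this order.

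Beyond the battery, a list of further genes reported to respond to AHR held 5 rises (IL1B, STC2, EREG, GREM1 and IL1A) among 32 measured members and 0 falls, with 23 changes positive and a median of 0.16. Of all genes 0.285% rose, and the list's count was 2 without the block and 3 without I3P+SR1 replicate 4. IL1B and IL1A are counted in the cytokine list too, and both lists were chosen with earlier results of these data known. Hypoxia and glycolysis genes had 0 calls of 32 and a median of 0.03, with VEGFA at 0.64 (adjusted p = 0.0666) and hexokinase gene HK2 at 0.64 (adjusted p = 0.0707) nearest to passing. The count of calls was 2 without I3P replicate 1, 1 without SR1 replicate 4, 3 with array weights and 2 with an intensity trend. Of 14 measured genes of tryptophan catabolism, the source of I3P and kynurenine, 0 passed and the median was 0.00434. Of 21 NRF2 antioxidant genes 0 passed, and the median was -0.00171.

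Cell cycle genes had mostly small negative changes, and none passed. Of 27 mitosis genes 25 had negative changes, with a median of -0.11, and of 33 DNA replication genes 29 were negative, with a median of -0.06, where 52.9% of all genes were negative. The medians of the mitosis list were -0.05, -0.07, -0.18 and -0.20 in replicates 1 to 4. Those of the DNA replication list were -0.01, 0.00390, -0.10 and -0.13, near 0 in both SLI replicates. The spindle checkpoint genes MAD2L1 and TTK were at -0.35 and -0.33. In I3P against DMSO, on separate arrays, the mitosis median was -0.14. The TGF-beta and YAP targets had 18 of 23 negative, a median of -0.25 and 0 calls, with CTGF, now named CCN2, at -0.66 (adjusted p = 0.0933) and ID1 at -0.37 (adjusted p = 0.211). The medians of this list were -0.09, -0.02, -0.27 and -0.32 in replicates 1 to 4, larger in size in the SMI replicates. In I3P against DMSO its median was -0.04.

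For the migration and mesenchymal list, 0 of 29 members passed, with a median of -0.08, PLAT, the tissue plasminogen activator gene, at 0.43 (adjusted p = 0.0971) and CDH11 at -0.49. Of 29 extracellular proteases and inhibitors SERPINB2 and ADAMTS18 rose, beside 0.285% of all genes, in a list chosen with earlier results of these data known. The collagenase gene MMP1 was at 0.75 (adjusted p = 0.221). In the integrated stress response STC2 was the passing member of 30, and in endoplasmic reticulum stress 0 of 20 passed, with HERPUD1 at 0.27. None of the 25 matrix genes, 21 interferon-stimulated genes, 19 p53 targets or 13 heat shock genes passed. Without I3P replicate 1, 2 interferon-stimulated genes passed as lower, and 1 matrix gene did so in a fit of the 8 arrays alone. Of the markers of other cell types KDR passed and the others did not, and their part in the results was not tested. Mean levels of the 8 measured epithelial markers lay between 7.63 and 8.07 on the SR1 arrays and between 7.85 and 7.999 on the I3P+SR1 arrays, and those of the 8 neuronal markers between 7.75 and 7.99 and between 7.73 and 7.95. The 4 measured haematopoietic markers lay between 7.92 and 8.18 and between 7.96 and 8.26, and the 8 endothelial markers, KDR among them, between 7.44 and 7.68 and between 7.64 and 7.72.

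**Figure D5:**
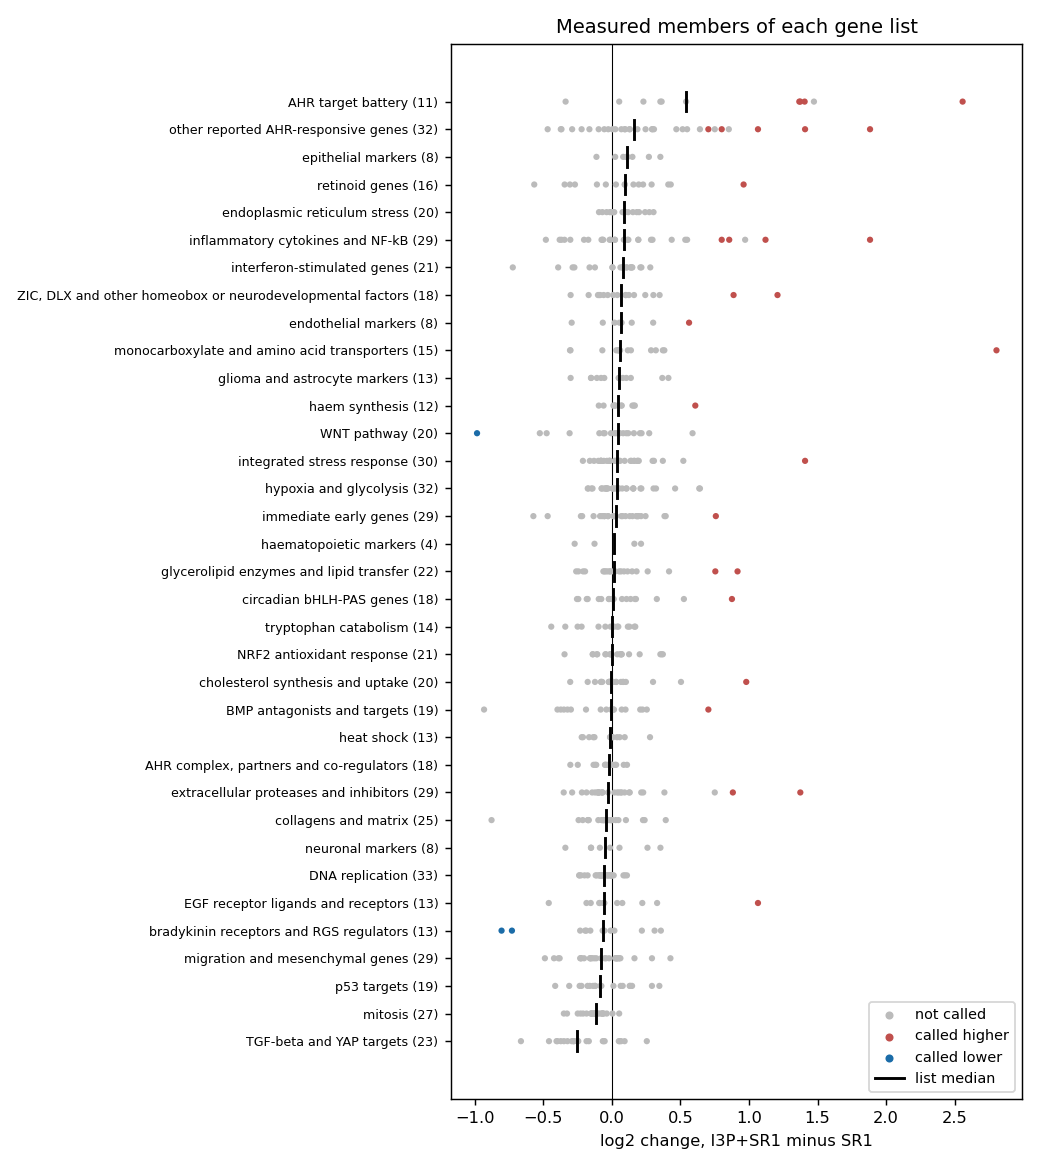
Log2 change from SR1 to I3P+SR1 of every measured member of 35 gene lists (points, with the number measured in brackets), ordered by the list median (black bars), with members called higher in red and lower in blue. The AHR target battery has the highest median at 0.54 and the TGF-beta and YAP targets the lowest at -0.25, and most lists sit near 0 with few or no coloured members.

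Some changes were large but uneven. Of 19 genes whose mean change exceeded 1 in size, 6 did not pass, and these were CYP1A1, ANO4, SLC17A3, DAPK2, FZD10 and IGFBP1, named after their values were seen. IGFBP1, an insulin-like growth factor binding protein, was higher in all 4 pairs by 0.85, 1.04, 1.24 and 0.94, with a change of 1.02 (SE 0.26, adjusted p = 0.181). DAPK2, a death-associated protein kinase, was higher in all 4 pairs by 1.79, 1.10, 1.94 and 0.47 (adjusted p = 0.657). SLC17A3 differed by 3.87, 0.10, 1.93 and -0.56 within the replicates, and its SR1 mean lay at percentile 0.0214.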

How the data were processed

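Total RNA from U-87MG cells (100 ng) was labelled with an Affymetrix WT kit, per the labels' protocols. The authors deposited log2 expression values for transcript clusters, made with oligo and RMA per the submitters' processing notes. Versions, genome build and annotation are not stated in the sources at hand, and 16510 rows were used. RMA equalises array distributions and compresses changes of dim genes. No detection calls were used, so signal over background was not assessed, and the number of arrays limits the precision.

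Of the rows, 14096 had 1 symbol, 795 several and 1619 none. The brightest row was kept for 52 genes with several, which left 14040 genes. Platform symbols were current for 12952, and 1063 were older symbols with a single current name, 25 with several. No pair of arrays was a duplicate, the smallest root mean square difference being 0.258.

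limma 3.58.1 in R 4.3.3 (lmFit, eBayes) used all 16 arrays in 1 model of group means plus the replicate number as a fixed block, and adjusted p is Benjamini-Hochberg over 14040 genes, two-sided. SE and 95% intervals are moderated and for single genes. The pairing is part of the definition of the comparison, and deviations of same-numbered SR1 and I3P+SR1 arrays from their group means correlated at 0.37 to 0.65 over genes, against -0.43 to 0.26 for different numbers. Deviations within a group cancel out, so positive values for the same number push those for different numbers down. The fit was also run on simulated data with independent normal noise and known changes. Those data held no array that stood apart, so they do not show how the fit behaves with I3P replicate 1. Genes were named if among the 20 top rises or 10 top falls by size that passed with 4 of 4 differences of a sign, or if in the AHR battery, AHR itself, or up to 4 members of smallest p from each other list. The other passing genes were added after their values were seen, as were list members beyond those 4. Members and the 35 lists were chosen with earlier results of these data known. Lists are described by counts and medians, with no test. Alternatives were no block, the title series as block, each series alone, the 8 arrays alone, array weights, an intensity trend, other row filters and arrays left out.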

Additional observations from a re-analysis of the deposited data

Results flagged for a closer look

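The response of CYP1B1 to I3P differed with and without SR1, by 2.21 on the log2 scale (adjusted p = 0.000383 by limma), higher with SR1 in 4 of 4 replicates. The change with SR1 started from a lower level, since the SR1 mean of CYP1B1 lay below its DMSO mean.

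Among 53 genes, with 2 groups of 4 arrays each, an array stood far from the other 3 in 8 groups, where chance gives about 1 in 20. In SR1 these were PLEKHG4B in replicate 4 at 7.41, the highest, and LOC284798 in replicate 4 at 7.90, the highest. INSIG1 in replicate 3 at 9.85 and KDR in replicate 2 at 7.52 were the lowest. In I3P+SR1 the highest were IER3 in replicate 4 at 11.24, FLVCR2 in replicate 1 at 9.53 and WNT9A in replicate 2 at 8.33, and the lowest was NPAS2 in replicate 4 at 10.02. Each array is the partner of an array that lay on the same side of its own group in PLEKHG4B, NPAS2 and IER3. This was also so in INSIG1, where the partner lay below its group mean but was not the lowest.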

How the results depend on the processing

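CYP1B1 passed under all 30 alternatives, with a log2 change of 2.17 to 2.95 and adjusted p of at most 0.0293, and no named gene that passed changed sign under any of them. The count of 45 genes for I3P+SR1 against SR1 depended on the fit. It was 16 with no replicate block, 27 with the title series as the block, 2 within SLI, 8 within SMI, 24 from only the 8 arrays compared and 126 with array weights. It was 18 to 104 with a single array left out, and 6 to 30 with a replicate number left out. It was 54 without the 4 I3P arrays, an alternative chosen after seeing the data, 51 with an intensity trend, 49 without the genes below percentile 25 and 49 with all rows. Fewer arrays leave fewer residual degrees of freedom; for the other changes the cause was not tested. The single gene of the interaction became 0 within SLI and 2 without I3P replicate 3, CYP1B1 and PDE8B. CYP1A1 passed with array weights (adjusted p = 0.0246) and without I3P replicate 1 (0.0289). SLC7A5, which did not pass, ranged from -0.0163, without SR1 replicate 2, to 0.12 with arrays left out, and was -0.01 without replicate 2. From the 8 arrays alone the interaction could not be fitted.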
